A study of Mus musculus with 4 samples.

Results

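Red blood cell genes were followed in ureters of mouse embryos that carried a conditional deletion of the fibroblast growth factor receptors Fgfr1 and Fgfr2 and in control ureters. The genes were chosen by name: every non-control probe whose listed gene was Hba-x, Hbb-bh1, Hbb-y, Hba-a1, Hba-a2, Hbb-b1, Alas2, Slc4a1 or Ahsp. This gave 10 probes of 39429 on the array, for 9 genes of 29875, and all 10 probes passed the filter on dim signals. Hbb-y had 2 probes and each other gene had 1. In the mutants, 2 of the 9 genes fell past the threshold of the test, as did 0.3% of all genes tested, and both are globins of primitive red cells: Hba-x by 0.66 ± 0.09 and Hbb-bh1 by 0.54 ± 0.07 on the log2 scale (SE, n = 4 arrays). The fitted ratio was below 0 for all 9 genes, but the other 7 did not pass the test, Hbb-y, Hba-a1, Hba-a2, Hbb-b1, Alas2, Slc4a1 and Ahsp.

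The first red cells of the mouse embryo arise in the yolk sac and are called primitive. They enter the circulation with a nucleus and mature there, and they use Hba-x, an embryonic globin of the alpha type, with Hbb-bh1 and Hbb-y, embryonic globins of the beta type. Definitive red cells come later from the fetal liver and use the adult-type globins, Hba-a1 and Hba-a2 of the alpha type and Hbb-b1 of the beta type. Primitive cells also make adult-type alpha globin. Each haemoglobin joins alpha-type and beta-type chains with haem. Total RNA of a dissected organ contains RNA of the blood cells present in its vessels.

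The tissue was the ureter of NMRI embryos at the embryonic stage E14.5. The mutants, called cDKO (conditional double knockout), carried Tbx18(cre/+) together with Fgfr1(fl/fl) and with Fgfr2(fl/fl). The controls were Fgfr1(fl/?) and Fgfr2(fl/?), so that they too had a floxed allele of each receptor gene, a second allele the labels do not name, and no cre allele in their labels. The cre sits at Tbx18, whose transcription factor is made in the mesenchyme around the ureteric epithelium, so the cDKO embryos also differed from the controls in 1 copy of Tbx18. On each of the 4 two-colour arrays, RNA of cDKO ureters was set against RNA of control ureters, with 150 ng of total RNA as input. The cDKO RNA was labelled with Cy5 (red) on replicates 1 and 3 and with Cy3 (green) on replicates 2 and 4. Both channels were from embryos labelled female on replicates 1 and 4 and male on replicates 2 and 3. Replicates 1 and 2 lay on slide 1 and replicates 3 and 4 on slide 2. Nothing in the labels says how many embryos a replicate stands for or whether they were pooled, so a p-value measures only the spread between these pairs of extracts.

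Over the whole array, 165 of 19365 genes passed the test (0.852%), 58 of them lower in cDKO and 107 higher (0.553%). The median log2 ratio of all genes was 0.01. Correlations of log2 ratios between arrays, across genes, ran from 0.01 to 0.51. No spot was saturated, and between 64.9% and 72.6% of spots in a channel were well above background. Fgfr1 had a log2 ratio of -0.40 ± 0.10 that did not pass (adjusted p = 0.117), and Fgfr2 had one of 0.59 ± 0.07 (adjusted p = 0.0356). The deleted parts of the 2 genes are not given in the sources used here, so these probes check no label. The 8 ureteric mesenchyme markers and 12 urothelium markers looked for were all measured. Of the mesenchyme markers, 7 had ratios above 0 and 1 passed, Ptch1, at 0.55 ± 0.08 (adjusted p = 0.0401).

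The array measured each gene by a probe of 60 bases. Probe sequences are shown for 4 genes, 2 primitive globins, 1 adult-type globin and the chaperone Ahsp, because near-identical globin genes can only be told apart where the probe differs. Sequences are 5′ to 3′ as listed in the scanner files, in lower case throughout.
Hba-x probe, transcript position 258: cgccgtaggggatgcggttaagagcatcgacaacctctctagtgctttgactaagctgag
Hbb-y probe, transcript position 379: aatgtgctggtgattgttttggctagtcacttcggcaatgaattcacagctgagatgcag
Hba-a1 probe, transcript position 161: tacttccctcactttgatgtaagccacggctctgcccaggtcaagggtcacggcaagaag
Ahsp probe, transcript position 177: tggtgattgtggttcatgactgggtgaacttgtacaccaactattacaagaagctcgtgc
In build mm9 the Hba-x probe lies at chr11:32177668-32177727 on the plus strand, within the Hba-x transcript, and the Hba-a1 probe at chr11:32183955-32184014 on the plus strand. The Hbb-y probe lies at chr7:111000448-111000507 on the minus strand. The files list no mm9 position for the Ahsp probe and no exon for any of them. The longest run of bases shared by the Hba-x and Hba-a1 probes was 6 of 60, and that of the Hba-x probe and this Hbb-y probe was 7. These probes lie at different transcript positions, so short runs do not show that a probe misses the transcript of another globin. Binding of the Hba-x and Hbb-y probes to other globin transcripts was not tested. The Hba-a1 and Hba-a2 probes also shared a run of only 6. The Hba-a1 and Hba-a2 probes each list the RefSeq transcripts of both genes, so Hba-a1 and Hba-a2 cannot be told apart by them. The Hbb-b1 probe also lists the transcript of Hbb-bs and shares a run of 46 of its 60 bases with the start of Hbb-bs, against 12 with that of Hbb-bt. Hbb-b1 with Hbb-b2 and Hbb-bs with Hbb-bt are the adult beta globin pairs of different strain haplotypes, so the values for Hbb-b1 are uncertain as to which gene they measure.

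RefSeq (GRCm38.p6) start sites were given for 5 of the 9 genes, Hba-x, Hbb-y, Hba-a1, Hba-a2 and Alas2. The 250 bases before the start are shown for 4 of them, because the fitted ratios of these genes were all below 0 and the windows can be read for letters known from red cell promoters. Capitals mark 5 motifs on either strand: CACCC (bound by factors such as KLF1; GGGTG on the other strand), the GATA motif forms AGATAA (other strand, TTATCT) and also TGATAA (other strand, TTATCA), then CCAAT (other strand, ATTGG) and finally TATAA (other strand, TTATA). No 2 of the motifs searched overlapped in these windows except the TATAA matches on opposite strands in Alas2.
Hba-x, chr11:32276350-32276599, plus strand: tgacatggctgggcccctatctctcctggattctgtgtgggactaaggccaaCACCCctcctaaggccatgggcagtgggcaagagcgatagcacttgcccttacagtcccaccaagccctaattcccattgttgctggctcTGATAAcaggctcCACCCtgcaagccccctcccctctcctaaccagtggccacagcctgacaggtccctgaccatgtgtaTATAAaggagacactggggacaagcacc
Hbb-y, chr7:103853208-103853457, minus strand: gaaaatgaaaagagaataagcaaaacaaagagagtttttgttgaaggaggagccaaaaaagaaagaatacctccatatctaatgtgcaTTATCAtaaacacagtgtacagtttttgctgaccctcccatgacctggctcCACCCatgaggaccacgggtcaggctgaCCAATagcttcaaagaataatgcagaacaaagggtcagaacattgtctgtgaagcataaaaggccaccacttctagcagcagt
Hba-a1, chr11:32283422-32283671, plus strand: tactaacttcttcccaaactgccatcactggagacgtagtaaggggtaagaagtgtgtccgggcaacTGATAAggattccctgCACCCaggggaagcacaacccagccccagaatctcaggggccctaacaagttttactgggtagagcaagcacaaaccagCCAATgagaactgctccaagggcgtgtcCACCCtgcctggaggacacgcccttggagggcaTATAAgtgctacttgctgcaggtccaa
Alas2, chrX:150547167-150547416, plus strand: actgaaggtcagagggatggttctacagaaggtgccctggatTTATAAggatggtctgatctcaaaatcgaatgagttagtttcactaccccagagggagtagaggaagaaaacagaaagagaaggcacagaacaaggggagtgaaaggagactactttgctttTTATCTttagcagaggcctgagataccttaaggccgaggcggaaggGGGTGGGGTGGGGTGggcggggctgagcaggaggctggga
Each of the 5 windows held CACCC together with AGATAA or TGATAA, a pair of motifs found in 7.11% of 32851 RefSeq windows of the same length. CACCC alone was in 52% of all windows, AGATAA in 9.99%, TGATAA in 7.94%, CCAAT in 33.8% and TATAA in 22.8%. The Hba-a2 window shares a run of 247 of its 250 bases with the Hba-a1 window, so the 5 are not 5 separate cases. In Hba-x, TGATAA began 108 bases before the start and CACCC 95 and 198 bases before it. Hba-x held no CCAAT, and Hbb-y held CCAAT but no TATAA. In Alas2, 3 CACCC matches lay on the opposite strand, 30, 35 and 40 bases before the start, and AGATAA lay 86 bases before it. These matches are letters in a window and no measurement of binding.

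Hba-x, the embryonic alpha-type globin, had the lowest ratio of the 9 genes. The log2 ratio of cDKO over control was -0.63 on replicate 1, -0.67 on replicate 2, -0.35 on replicate 3 and -1.004 on replicate 4. All 4 arrays were below 0, replicate 4 lowest and replicate 3 nearest to 0. The channel levels (log2 intensity after scaling between arrays) were 13.86, 13.66, 13.94 and 14.37 in the controls and 13.23, 12.998, 13.59 and 13.37 in cDKO. Every cDKO level was thus below every control level, which held for 1 of the 9 genes here and for 3.33% of all genes tested. Hba-x fell by 0.66 ± 0.09 on the log2 scale (SE, n = 4), a signal 36.8% lower in cDKO, with an adjusted p of 0.0425 in limma. Its 95% confidence interval ran from -0.89 to -0.44. The call was lost without replicate 1 (adjusted p = 0.146) and without replicate 2 (adjusted p = 0.0538), while the ratio then stayed at -0.59 and -0.75.

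Hbb-bh1, the embryonic beta-type globin typical of the earlier primitive cells, had the most even ratios. They were -0.47, -0.61, -0.40 and -0.65 on replicates 1 to 4. The control levels were 13.98, 13.71, 13.14 and 13.53, and the cDKO levels were 13.50, 13.09, 12.74 and 12.88. Levels overlapped between the groups because the replicates differed in both channels together, replicate 1 being high and replicate 3 low, while within each array the cDKO channel was the lower one. Hbb-bh1 fell by 0.54 ± 0.07 (SE, n = 4; adjusted p = 0.0385), a signal 31% lower in cDKO, with a 95% confidence interval from -0.71 to -0.36. The call was lost without replicate 1, 2 or 3 (adjusted p = 0.157, 0.0759 and 0.0633).

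Hbb-y, the other embryonic beta-type globin, was measured by 2 probes with different results. The brighter one, at transcript position 559, gave -0.19, -0.51, -0.08 and -0.56. Both arrays with cDKO in Cy3 were lower than both with cDKO in Cy5. Control levels were 17.58, 17.59, 17.38 and 17.53 and cDKO levels 17.39, 17.07, 17.30 and 16.98, with a small overlap between groups. Its fitted ratio of -0.33 ± 0.07 (SE, n = 4) did not pass (adjusted p = 0.0933), with a 95% interval from -0.51 to -0.16. The probe at position 379, whose sequence is given above, had ratios of -0.26, -0.95, -0.04 and -0.96. In the fit over all 25591 kept probes it gave -0.55 ± 0.08 with an adjusted p over probes of 0.0463, against 0.223% of all probes called lower. The ratio at position 379 minus that at position 559 was -0.07, -0.44, 0.04 and -0.41, so the probes differed on the arrays with cDKO in Cy3 and were close on the other two.

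The adult-type alpha globin probes did not pass the test. Hba-a1 had log2 ratios of 0.02, -0.73, 0.28 and -0.64 on replicates 1 to 4, with control levels of 17.72, 17.86, 17.63 and 18.12 and cDKO levels of 17.74, 17.13, 17.92 and 17.48. The values split by dye, at or above 0 with cDKO in Cy5 and well below 0 with cDKO in Cy3, and the groups overlapped. Its fitted ratio was -0.27 ± 0.08 (SE, n = 4; adjusted p = 0.16), with a 95% interval from -0.46 to -0.07. Hba-a2 split the same way in smaller steps, at -0.05, -0.36, 0.11 and -0.58. Its control levels were 17.69, 17.77, 17.59 and 17.86 and its cDKO levels 17.65, 17.41, 17.70 and 17.28, which overlapped. The fitted ratio of Hba-a2 was -0.22 ± 0.08 (adjusted p = 0.21), with a 95% interval from -0.41 to -0.03. Both intervals rest on a fit with a term for dye. Without that term the ratios were the same, and the SE was 0.17 for Hba-a1 and 0.12 for Hba-a2.

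The probe listed as Hbb-b1, an adult-type beta globin, showed another pattern over the arrays. Its ratios were -0.72, -0.28, -0.11 and -0.08, so that replicate 1 was far lower than the rest and all 4 were below 0. Control levels were 14.91, 14.85, 14.94 and 14.56 and cDKO levels 14.19, 14.57, 14.83 and 14.47, and the groups overlapped. The fitted ratio was -0.30 ± 0.11 (SE, n = 4; adjusted p = 0.226), with a 95% interval from -0.57 to -0.02. It was -0.14 without replicate 1 and -0.45 without replicate 3.

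Of the other red cell genes, Alas2 encodes the red cell enzyme that starts haem synthesis. Its ratios were -0.51, -0.13, -0.25 and -0.47, all below 0 and lowest on the arrays labelled female. Its levels were 12.63, 12.39, 12.76 and 12.88 in the controls and 12.12, 12.26, 12.51 and 12.41 in cDKO, with overlap. The fitted ratio of Alas2 was -0.34 ± 0.09 (SE, n = 4; adjusted p = 0.132), with a 95% interval from -0.56 to -0.12. Slc4a1, the anion exchanger of the red cell membrane (band 3), had ratios of -0.38, 0.19, -0.31 and -0.42. Replicate 2 stood on the other side of 0 from the rest, and the control levels (10.58, 10.30, 11.00 and 10.87) overlapped those of cDKO (10.20, 10.49, 10.69 and 10.45). Its fitted ratio was -0.23 ± 0.11 (adjusted p = 0.312), with an interval from -0.50 to 0.04 that includes 0. Without replicate 4 it was -0.08, and without replicate 2 it was -0.38. Ahsp, a chaperone of free alpha globin chains, had ratios of -0.42, -0.19, 0.03 and -0.54, with replicate 3 at about 0. Control levels were 13.62, 13.49, 13.56 and 13.69 and cDKO levels 13.20, 13.30, 13.59 and 13.16, which overlapped through replicate 3. Its fitted ratio was -0.28 ± 0.11 (adjusted p = 0.222), with an interval from -0.53 to -0.03, and it was -0.17 without replicate 1.

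**Figure D1:**
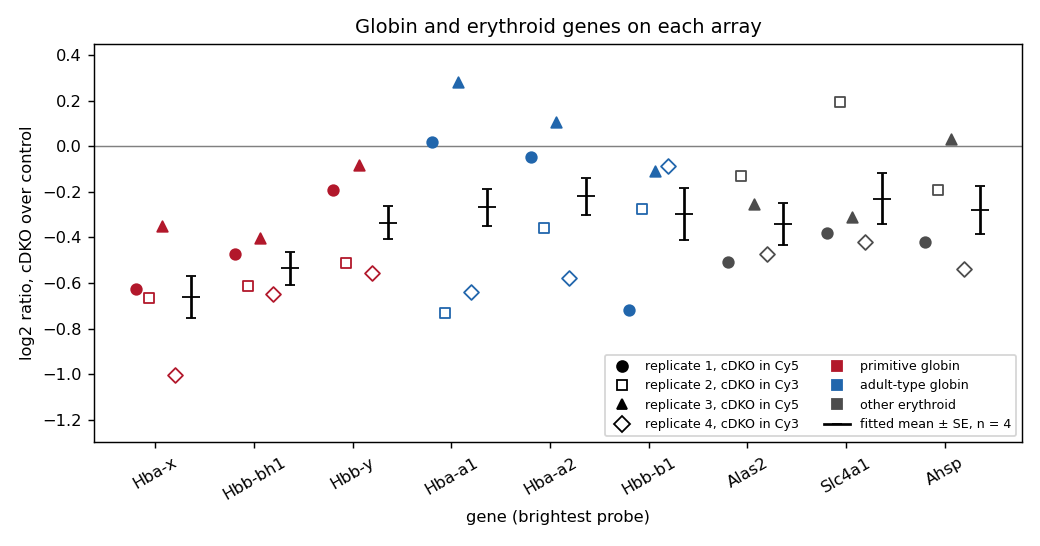
Log2 ratio of cDKO over control (vertical axis) of the 9 genes on each of the 4 arrays, with marker shape for the replicate and filled markers where cDKO was in Cy5; the bar beside each gene is the fitted mean ± SE. Hba-x and Hbb-bh1 lie below -0.35 on every array, and Hba-a1 and Hba-a2 split by dye.

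**Figure D2:**
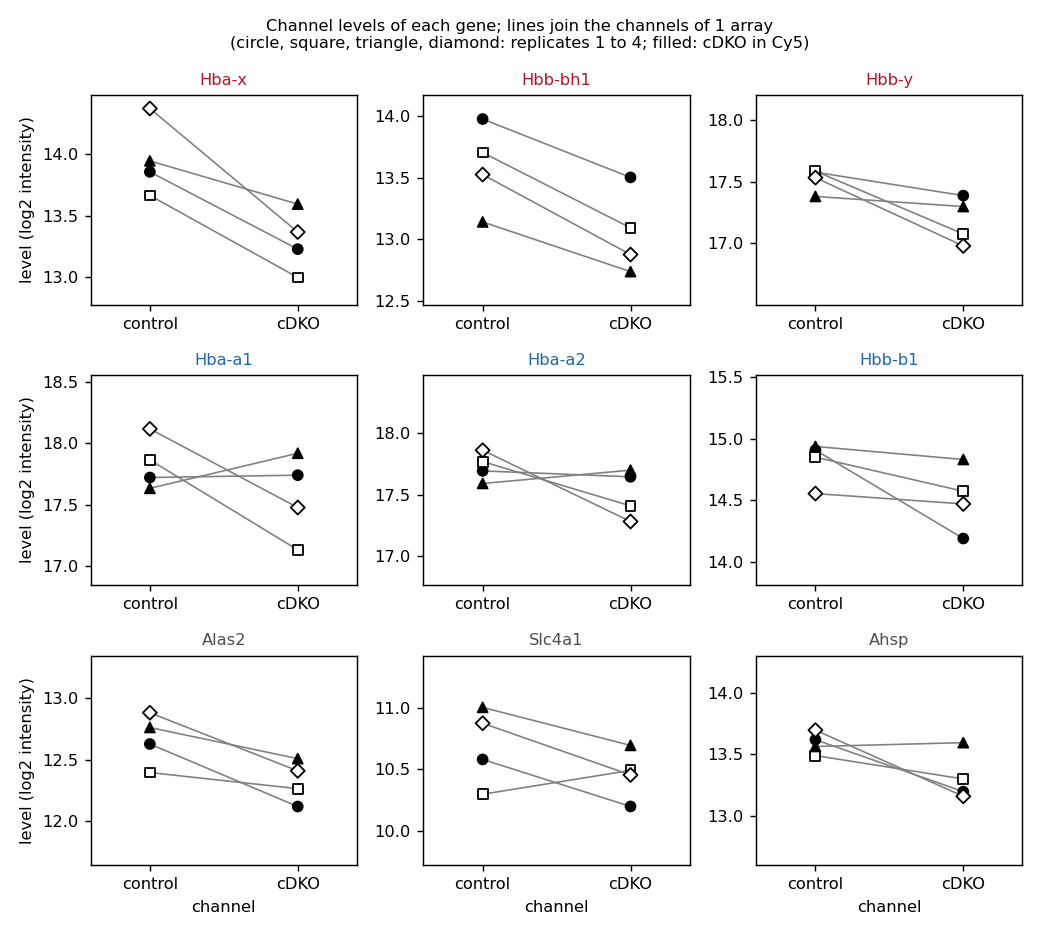
Channel levels (log2 intensity) of the brightest probe of each gene in the control and cDKO channels; each line joins the channels of 1 array, and every panel spans the same range. In the Hba-x panel all 4 cDKO points lie below all 4 control points, and in the Hbb-bh1 panel all 4 lines run down although the groups overlap.

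As a set, the 9 genes had a median log2 ratio of -0.30, against 0.01 for all genes tested. All 9 fitted ratios were below 0, against 47.3% of all genes. Of the 9, 5 were below 0 on every array (Hba-x, Hbb-bh1, Hbb-y, Hbb-b1 and Alas2), against 11.8% of all genes. Before adjustment, 8 of the 9 had a p under 0.05 on the lower side, against 7.88% of all genes, and Slc4a1 was the exception. That count of 8 depended on the fit, at 6 without the dye term, 3 without replicate 1 and 9 with slide as a term. The genes are all red cell genes, of primitive or definitive cells, and the alpha globin probes share their targets, so these are not independent counts. The genes were also chosen with results of these data known. In whole ureters, fewer red cells and less of these transcripts in each red cell cannot be told apart.

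The mean of the 3 primitive globins lay below the mean of the other 6 genes on every array, although single genes of the classes overlapped. The mean log2 ratio of the primitive globins was -0.43, -0.60, -0.28 and -0.74 on replicates 1 to 4. That of the adult-type globins was -0.25, -0.46, 0.10 and -0.43, and that of Alas2, Slc4a1 and Ahsp was -0.44, -0.04, -0.18 and -0.48. Replicate 4 was lowest or close to lowest for each class, and replicate 3 was nearest to 0 for both globin classes. The primitive mean minus the mean of the other 6 was -0.09, -0.35, -0.24 and -0.28, with a mean of -0.24 ± 0.11 (SD, n = 4). Against the adult-type globins alone it was -0.18, -0.14, -0.37 and -0.30, a mean of -0.25 ± 0.11 (SD). Against Alas2, Slc4a1 and Ahsp the difference was 0.01 on replicate 1 and below 0 on the other 3 arrays, with a mean of -0.23 ± 0.24 (SD). No p-value is given for these differences, since the classes were chosen with results known.

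Within the primitive globins, the order was the same on most arrays. Hba-x minus Hbb-y was -0.44, -0.16, -0.27 and -0.45, and Hbb-bh1 minus Hbb-y was -0.28, -0.10, -0.32 and -0.09. Hba-x and Hbb-bh1 were thus lower than Hbb-y on all 4 arrays when Hbb-y is read by its brighter probe. Between the alpha-type genes, Hba-x minus the mean of Hba-a1 and Hba-a2 was -0.61, -0.12, -0.55 and -0.39, larger on the arrays with cDKO in Cy5. Between the beta-type genes, Hbb-bh1 minus Hbb-b1 was 0.24 on replicate 1 and -0.34, -0.30 and -0.57 on the others, so the difference did not hold on every array.

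Dye moved with several of these values. The dye effect, the part of a log2 ratio of Cy5 over Cy3 that does not follow genotype, was 0.42 for Hba-a1 (unadjusted p = 0.00159, adjusted p = 0.239), 0.25 for Hba-a2 and 0.20 for Hbb-y. These 3 genes were among the 221 of the brightest percentile of probes that entered the test. The median dye effect of those 221 genes was 0.22, with quartiles of 0.13 and 0.31, and in the other brightness classes the median lay between -0.04 and 0.01. Among the 221, 9 had a larger dye effect than Hba-a1, 99 a larger one than Hba-a2 and 115 a larger one than Hbb-y. In limma no gene passed the test for a dye effect, while 1704 of 19365 had an unadjusted p under 0.05. Hba-x and Hbb-bh1, which are less bright, had dye effects of 0.17 and 0.10. Each genotype was in each dye on 2 arrays, so the fitted ratios are balanced over the dyes, and the median ratio of the 221 brightest genes was -0.05.

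**Figure D3:**
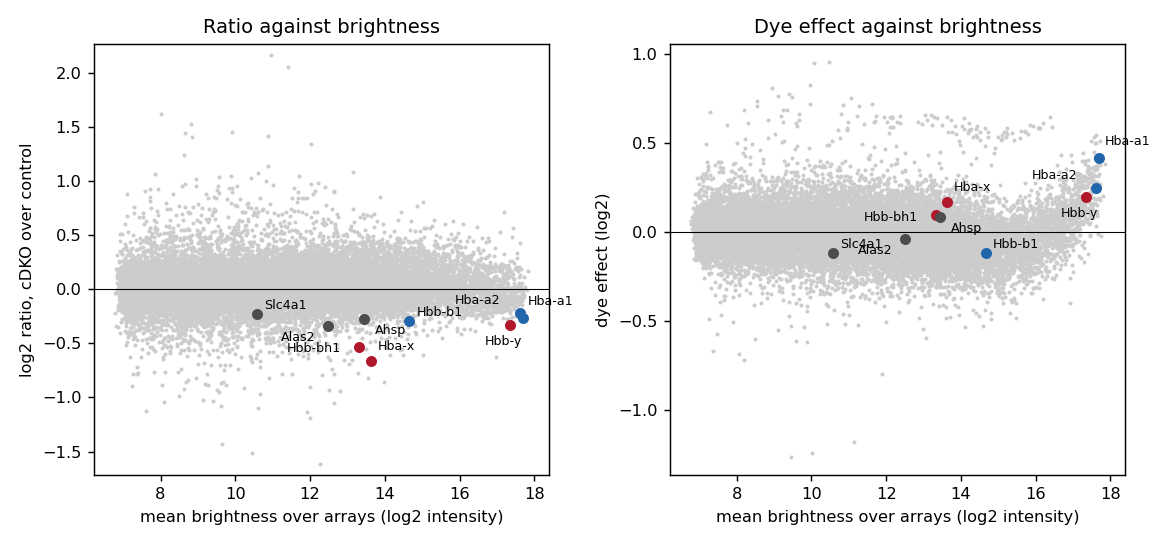
Left, log2 ratio of cDKO over control against mean brightness (log2 intensity) for all 19365 genes (grey) and the 9 red cell genes (red, primitive globins; blue, adult-type globins; dark grey, others). Right, the dye effect against the same axis: grey points turn upward at the bright end, where Hba-a1, Hba-a2 and Hbb-y lie at 0.42, 0.25 and 0.20.

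The called genes were also read by slide and by sex label. On slide 1 and slide 2 the ratio was -0.65 and -0.68 for Hba-x and -0.54 and -0.53 for Hbb-bh1. In the test of the difference between slides, which 173 of all genes passed (0.893%), the adjusted p was 0.96 and 0.972. On the arrays labelled female and male the ratio was -0.82 and -0.51 for Hba-x and -0.56 and -0.51 for Hbb-bh1. With the sex label as a term in the fit, both calls were lost (adjusted p = 0.0884 for Hba-x and 0.117 for Hbb-bh1). The other genes of the 9 also had lower ratios on the arrays labelled female. The gap was widest for Ahsp (-0.48 female, -0.08 male) and Slc4a1 (-0.40 female, -0.06 male). In limma no gene passed the test of the difference between sex labels, which leaves 1 residual degree of freedom, and 207 had an unadjusted p under 0.05. The female label went with cDKO in Cy5 on slide 1 and in Cy3 on slide 2, and the male label the reverse. A difference by sex label thus cannot be told apart from a dye effect that differs between slides. Likewise, a difference by slide cannot be told apart from a dye effect that differs between sex labels. Hbb-b1 differed most between slides, at -0.50 on slide 1 and -0.09 on slide 2, and this did not pass (adjusted p = 0.307). In the authors' deposited table, which gives a signed fold per array, Hba-x stood at -1.59, -1.67, -1.27 and -2.05 and Hbb-bh1 at -1.45, -1.63, -1.3 and -1.63. Hbb-y stood there at -1.25, -1.33, -1.13 and -1.32, and Hba-a1 at -1.11, -1.5, 1.07 and -1.27.

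The wider red cell programme was read from 6 lists, and none of their 82 measured genes passed the test in limma in either direction. Before adjustment, 11 had a p under 0.05 on the lower side and 7 on the higher side, against 7.88% of all genes on the lower side and 11.7% on the higher side. Of the other globins, 5 of 12 were measured, with a median ratio of -0.14. Hbb-b2, an adult-type beta globin, had ratios of 0.77, 1.02, 0.17 and -0.20 and a fitted ratio of 0.44 ± 0.20 (adjusted p = 0.289). Its ratios were higher on the arrays of slide 1 than on those of slide 2. Hbb-bt, the adult beta globin of the other haplotype, had -0.20, -0.46, 0.33 and -0.41, a fitted -0.19 ± 0.10 (adjusted p = 0.36). Hbq1a and Hbq1b, theta globins of the alpha locus, had 0.00 ± 0.12 and -0.14 ± 0.08, at dim mean control levels of 6.99 and 7.47. Cygb, a globin of fibroblast-like cells rather than red cells, had -0.40 ± 0.12 (adjusted p = 0.151). Hbb-bh2 and the muscle, nerve and testis globins Mb, Ngb and Adgb were too dim to keep, and no probe was named Hbb-bs, Hbb-bh0 or Hbb-bh3.

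Haem synthesis genes other than Alas2 had ratios on both sides of 0. All 15 were measured, 5 lay below 0, and the median was 0.04. Fech, which puts iron into haem in the last step, had -0.16 ± 0.07 (adjusted p = 0.274) and was below 0 on all 4 arrays. Ppox, the enzyme before it, had 0.34 ± 0.15 (adjusted p = 0.288). Alas1, the housekeeping counterpart of Alas2, had 0.17 ± 0.09 (adjusted p = 0.332). Of the 9 iron genes, 2 lay below 0 and the median was 0.09. Slc11a2, an iron transporter, had 0.25 ± 0.07 (adjusted p = 0.151), Tfrc, the transferrin receptor, 0.17 ± 0.09 (adjusted p = 0.336), and Fth1, the ferritin heavy chain, 0.14 ± 0.07 (adjusted p = 0.353).

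The transcription factors of red cell formation, with the receptors Epor and Kit, had a median ratio of 0.03, and 7 of 18 lay below 0. Myb, a factor of progenitor cells, had 0.55, 0.60, 0.62 and 0.22 on the 4 arrays and 0.50 ± 0.09 in the fit (adjusted p = 0.0646). Bcl11a, a repressor of embryonic globin genes, had 0.44, 0.43, 0.35 and 0.36, a fitted 0.40 ± 0.07 (adjusted p = 0.0669). Both were above 0 on every array, and neither passed. Lmo2, part of a complex with the factors Tal1 and Gata1 that is also used in endothelium, had -0.36, -0.25, -0.47 and -0.46, a fitted -0.39 ± 0.08 (adjusted p = 0.0808). Sox6, another repressor of embryonic globin genes, had 0.30 ± 0.07 (adjusted p = 0.111). Gata1 and Klf1, the leading activators of red cell genes, had 0.00 ± 0.09 (adjusted p = 0.997) and -0.11 ± 0.08 (adjusted p = 0.519). Gata1, Klf1 and Sox6 were dim, at mean control levels of 7.65, 7.52 and 7.08, in a list that ran from 7 to 14.18. A change in them could be missed at such levels. Sox6, Gata1, Klf1 and Alas1 are named for their roles beside the genes the rule gave. Several of these factors are also made by cells other than red cells.

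Red cell membrane genes also had ratios on both sides of 0, with 10 of 20 measured genes below 0 and a median of 0.01. Trim10, a gene of late red cell maturation, had -0.29 ± 0.08 (adjusted p = 0.134). Kel, a blood group protein, had -0.23 ± 0.07 (adjusted p = 0.17). Both were below 0 on every array, and neither passed. Among red cell enzymes and maturation genes, 10 of 15 lay below 0 and the median was -0.11. Car2, a carbonic anhydrase, had -0.21, -0.65, 0.09 and -0.65, a fitted -0.36 ± 0.08 (adjusted p = 0.104), and split by dye as Hba-a1 did. Blvrb, biliverdin reductase B, had -0.36 ± 0.09 (adjusted p = 0.12), and Ube2l6, a ubiquitin-conjugating enzyme of late red cells, had -0.33 ± 0.11 (adjusted p = 0.186). Hemgn, a red cell nuclear protein chosen here after its values were seen, had 0.64, -0.65, 0.66 and -0.19 and a fitted ratio of 0.12 ± 0.10 (adjusted p = 0.549).

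**Figure D4:**
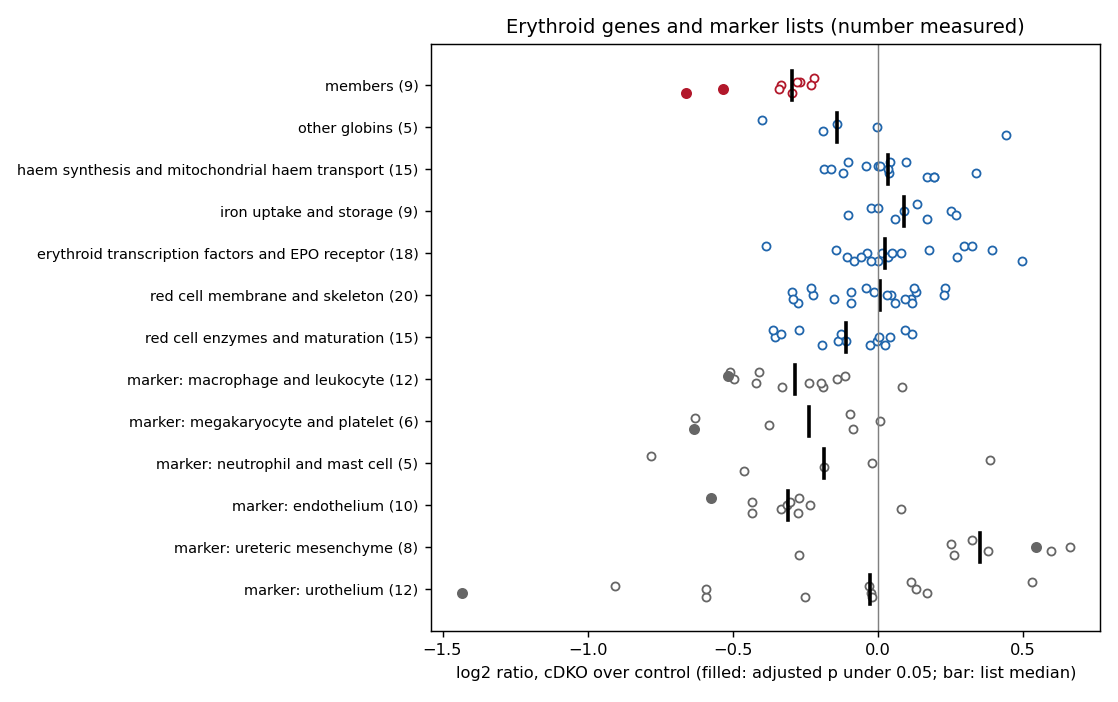
Log2 ratio of cDKO over control (horizontal axis) of each measured gene in the 9 chosen red cell genes (red), the 6 red cell lists (blue) and the 6 cell type marker lists (grey); filled points passed the test and bars are list medians. The median of the 9 genes is -0.30, and the medians of the 6 red cell lists lie between -0.14 and 0.09.

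Most measured markers of other blood and vessel cells had ratios below 0 alongside the red cell genes. For all the marker counts that follow, 47.3% of all genes tested had ratios below 0 and 0.3% passed on the lower side. Of the macrophage and leukocyte markers, 11 of 12 measured lay below 0, with a median of -0.28, and 1 passed, Fcer1g, an Fc receptor chain, at -0.52 ± 0.08 (adjusted p = 0.049). Mrc1, a receptor of tissue macrophages, had -0.41 ± 0.07 (adjusted p = 0.0669). The summed intensity of this list was 16567 to 20549 in cDKO and 21507 to 25929 in the controls, with no overlap. Among single genes, 3.33% of all tested had every cDKO level below every control level. No such share was counted for summed lists, so how common this separation is remains unknown. Of the megakaryocyte and platelet markers, 5 of 6 measured lay below 0, with a median of -0.24. Pf4, a platelet chemokine, passed at -0.63 ± 0.08 (adjusted p = 0.0356), and Ppbp had -0.63 ± 0.11 (adjusted p = 0.0642). The summed intensity of that list was 3843 to 4863 in cDKO and 5403 to 6806 in the controls, while the defining markers Itga2b, Gp1ba and Gp6 were too dim to keep.

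Of the endothelial markers, 9 of 10 lay below 0, with a median of -0.31, and Emcn passed at -0.58 ± 0.07 (adjusted p = 0.0363). Pecam1 had -0.43 ± 0.09 (adjusted p = 0.0829). The summed intensity was 71767 to 86192 in cDKO and 85360 to 106181 in the controls, with a small overlap. Of the neutrophil and mast cell markers, 4 of 5 measured lay below 0 and none passed, with Cpa3 at -0.78 ± 0.12 (adjusted p = 0.0524) and S100a8 at -0.46 ± 0.10 (adjusted p = 0.1). Their summed intensity was 1796 to 2189 in cDKO and 1971 to 2565 in the controls, and Ngp, Cma1 and Mcpt4 were too dim to keep. The summed intensity of the 9 red cell genes was 513395 to 689490 in cDKO and 648356 to 791242 in the controls, which overlapped. Bright genes weigh most in every such sum. Here these were Hba-a1, Hba-a2 and Hbb-y, at mean control levels of 17.83, 17.73 and 17.52, against 13.96 for Hba-x. Their ratios also differed by dye, so the overlap of the sums says little about the dimmer red cell genes. Foxf1, a second mesenchyme marker, had 0.60 ± 0.12 (adjusted p = 0.0782), and the summed mesenchyme list was 96326 to 121835 in cDKO and 78170 to 111404 in the controls. Of the urothelium markers, 8 of 12 lay below 0, and Upk1b passed at -1.43 ± 0.20 (adjusted p = 0.0401), with Upk3a at -0.91 ± 0.15 (adjusted p = 0.0558). The summed urothelium list was 190875 to 250327 in cDKO and 200272 to 220052 in the controls. The part of these cell types in the ratios of the red cell genes was not tested.

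Genes outside the set were ranked by how closely their 4 ratios followed the mean of the primitive globins, by root-mean-square distance over the 4 arrays. The nearest 8 were Asb4, Gas2, Car3, Lpar3, Ly86, Ccl2, Lgals9 and Ms4a6d, at distances from 0.0747 to 0.117. Asb4 had ratios of -0.43, -0.59, -0.41 and -0.81, and Asb4, Gas2, Car3 and Lpar3 passed the test, with fitted ratios from -0.61 to -0.51. The genes nearest to the mean of the other 6 red cell genes included Yif1a, Glmp, Slc50a1, Serpinb3c, Ccnt1, Zfp457 and Tmem106c, at distances from 0.0344 to 0.0743. None of these passed the test. With 4 arrays and 19365 genes, a small distance is a description only. The genes were picked for nearness to means below 0 on all 4 arrays. Their ratios, and whether they passed, thus follow largely from that choice.

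Across 19 other ways of processing or fitting the data, or of leaving arrays out, every one of the 9 fitted ratios stayed below 0. Hba-x ran from -0.82 to -0.51 and passed the test in 12 of the 19, and Hbb-bh1 ran from -0.58 to -0.51 and passed in 9. Hbb-y ran from -0.48 to -0.30, Hba-a1 from -0.43 to -0.18, Hba-a2 from -0.38 to -0.13 and Alas2 from -0.49 to -0.19. The widest ranges were those of Hbb-b1, from -0.50 to -0.09, Slc4a1, from -0.40 to -0.06, and Ahsp, from -0.48 to -0.08. The primitive globins minus the other 6 genes ran from -0.29 to -0.18. With slide as a term in the fit, which leaves 1 residual degree of freedom, 6 of the 9 passed (Hba-x, Hbb-bh1, Hbb-y, Hba-a1, Hbb-b1 and Alas2), but 2418 of all genes then passed too.

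**Figure D5:**
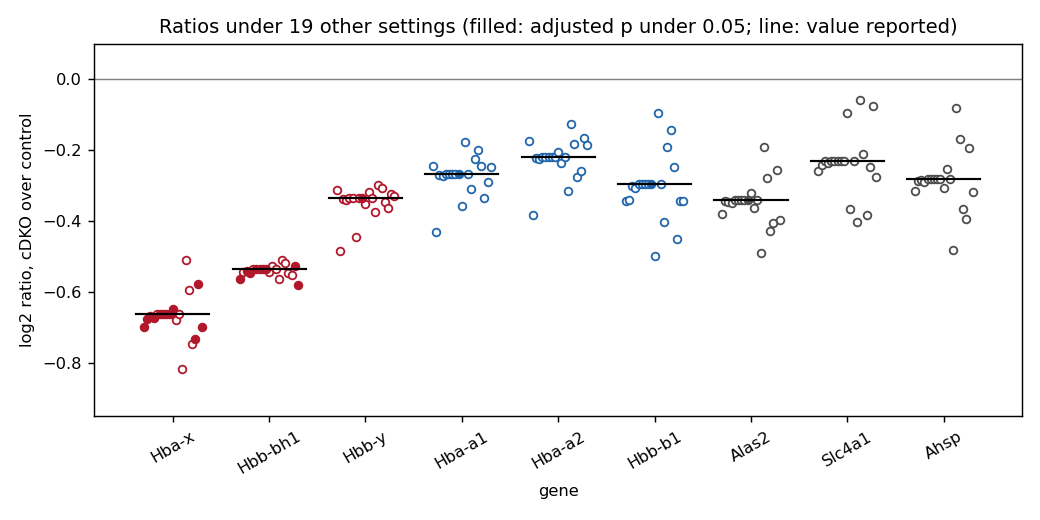
Fitted log2 ratio of cDKO over control (vertical axis) of each gene under 19 other settings (points, filled where the adjusted p was under 0.05), with the reported value as a line. Every point lies below 0; most filled points belong to Hba-x and Hbb-bh1.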

How the data were processed

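Total RNA of E14.5 ureters was compared on 4 two-colour arrays, cDKO against control. Per the labels' protocols the authors labelled 150 ng of RNA with Cy3 or Cy5. Per the file headers, Agilent Feature Extraction 10.7.3.1 read the scans, and probe positions are those of mm9. The deposited files give intensity per spot and channel, not normalized, with processed intensity and log10 ratios from the scanner software. The authors' deposited value table holds a score per probe, a signed fold with no value between -1 and 1. Each column's median is 1, its correlation with the cDKO over control ratio was 0.909 to 0.945 across probes. The sources used here do not give its centring.

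Mean intensity was background-corrected with normexp (offset 50) and ratios were normalized by loess (span 0.3). A probe was kept if, on every array, at least 3 of its 4 spots stood well above background in the cDKO channel, or if the same held for the control channel (25591 of 39429), and the brightest kept probe stood for a gene. Probes were named through their accession (28328), symbol (3400) or synonym (243) in RefSeq tables, and 7458 kept the file's name. Channel levels were log2 intensities after quantile scaling of mean intensity between arrays. Ratios, turned to cDKO over control by the dye labels, were fitted with limma 3.58.1 in R 4.3.3 (lmFit and eBayes) with a dye term. The fit was also run on simulated ratios with independent errors and no dye, slide or sex effect. Such a run cannot show how the fit behaves where these effects are present. P-values were two-sided, adjusted by Benjamini-Hochberg over 19365 genes, with a threshold of 0.05. The precision is limited by the number of arrays.

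The members, lists and tests were chosen with earlier results of these data known. The rule for named genes took all 9 members, the 3 genes of each red cell list and the 2 of each marker list with the smallest p (all of a list with 5 or fewer), and the 8 genes nearest to the primitive globins and to the other members. Other genes were added for their roles, and a few values the rule gave are not reported here. Alternatives were another background correction, normalization, filter or probe rule, fits without the dye term or with slide or sex, the authors' table, and each replicate left out.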

Additional observations from a re-analysis of the deposited data

Results flagged for a closer look

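The ratios of 101 genes and class means were checked for 1 array standing apart, by the gap to the nearest other array over the whole range. None of the 9 red cell genes stood apart, and 4 other genes did, where chance gives about 1 in 20. Klf1 was 0.12 on replicate 3 and below 0 on the others. Abcb10, a mitochondrial transporter of red cells, was 0.20 on replicate 2 and about 0 elsewhere. Tfrc was 0.46 on replicate 3 and lower on the others. Myb was 0.22 on replicate 4 and higher on the others.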

How the results depend on the processing

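None of the 9 log2 ratios, nor the difference of the primitive globins from the other 6 genes, changed direction in the 19 alternatives. The count of all genes past the threshold (165) became 255 with median centring in place of loess, 263 with a normexp offset of 16, 258 without the dye term, 1 without the filter on dim probes, 2418 with slide as a term, 551 within slide 1, 0 within slide 2, 2 with the sex label as a term, 2 on the arrays labelled female and 0 on those labelled male. Leaving out replicate 1, 2, 3 or 4 gave 34, 56, 266 and 403. By limma before adjustment, 1346 genes within slide 2 and 959 on male arrays had a p under 0.05, where each fit has 2 arrays. Without the filter on dim probes, 29875 genes were tested.

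The count of red cell genes called lower (2) became 1 with median centring (Hba-x), 1 within slide 1 (Hba-x), 6 with slide as a term, and 0 without the filter, within slide 2, with the sex label as a term and on female or male arrays alone, where 2 to 7 of the 9 had an unadjusted p under 0.05. Leaving out 1 replicate gave 0 to 2 (0 without replicate 1 or 2, 1 without replicate 3). Over the 19 alternatives the adjusted p ran from 0.00315 to 0.79 for Hba-x and from 0.00309 to 0.78 for Hbb-bh1. In the 6 red cell lists, where 0 genes were called, 1 was called higher and 1 lower with the scanner's processed signals, 8 higher and 6 lower with slide as a term, 3 higher within slide 1, and 1 higher with the mean of all probes or with the authors' table. Leaving out 1 replicate gave 0 to 1 higher, the 1 without replicate 4. Except where stated, the cause was not tested. Slide as a random block was not run, since no correlation could be estimated beside the dye term. Pairing is already part of the fit, since each ratio sets cDKO against control RNA on 1 array. No further paired analysis was run, as the arrays form a single group.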
